A study of Mus musculus with 4 samples.

Results

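Tmem119 and 8 other genes of the homeostatic microglia signature (Sparc, Olfml3, Selplg, Slc2a5, Crybb1, Golm1, Hpgd and Gpr34) were followed across 4 bulk RNA-seq libraries. The genes were taken by symbol from the deposited count tables. All 9 of them were among the 49993 genes with a count, and all 9 were among the 21439 genes that passed the filter on low counts. The libraries came from CD11b+ microglia, enriched by magnetic-activated cell sorting from brains of mice aged 10 months. Every mouse carried the APP/PS1 transgenes, which drive amyloid deposition and model Alzheimer's disease. Among the libraries, 2 were labelled APP/PS1+ asrij+/+ (AD) and 2 were labelled APP/PS1+ asrij-/- (AD/KO), the latter with a constitutive deletion of asrij (the gene Ociad1). No library from mice without APP/PS1 was analysed here, so that every comparison is within the amyloid model. The labels do not state the sex, or whether the 2 libraries of a group came from separate animals or pools, so that p-values measure only the spread between these libraries.

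Microglia are the resident macrophages of the brain. In the healthy brain they depend on TGF-beta and colony-stimulating factor 1 receptor signals and hold a set of transcripts that sets them apart from blood monocytes and other macrophages, of which Tmem119 is a widely used marker. Near amyloid plaques, microglia are known to lower many of these homeostatic transcripts while they raise a disease-associated set. Of the 9 genes, most encode surface or secreted proteins, but Crybb1 and Hpgd encode cytosolic proteins.

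The libraries held from 13102622 to 19810076 counts. Ociad1, the deleted gene, was at 50.1 and 63.4 CPM (the read count scaled to library size, with the trimmed mean of M values between libraries) in AD and at 38.9 and 32.1 CPM in AD/KO. Since its transcript was lower but still present, the names AD and AD/KO are used here for the labels of the libraries. Among the libraries, 2 stood apart. AD/KO replicate 2 had the highest summed level of neuron (1679 CPM, against 193 to 724 CPM) and astrocyte markers (11494 CPM, against 1838 to 4484 CPM), and the lowest of 12 pan-microglia genes such as Csf1r (4369 CPM, against 9307 to 13763 CPM). AD replicate 2 had the highest summed level of neutrophil markers (4504 CPM, against 334 to 526 CPM), and it alone held more than 15 reads of Xist, with 1391. Of 8 neuron, 8 astrocyte and 8 neutrophil markers, none was at 0 in a library, while 6 of 7 T and NK cell markers (all but Cd3d) were at 0 in at least 1 library. In bulk RNA, fewer microglia in a library and less of a transcript in each microglial cell cannot be told apart.

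Of the 9 genes, 6 had a promoter in the RefSeq table for GRCm38.p6 (all but Tmem119, Selplg and Gpr34). The 250 bases before the RefSeq promoter start of 4 genes are shown. These genes were chosen because their ratios to the other genes differed most, or least, between libraries. The annotations place some starts differently. The Sparc window lies inside the GENCODE M21 gene, which reaches 55423183. The Crybb1 window lies inside the RefSeq gene, which begins at 112254563, and its last bases pass the GENCODE start at 112255815. Sparc (chr11:55420081-55420330, minus strand) and Crybb1 (chr5:112255570-112255819, plus strand) had their highest ratio to the other genes in AD/KO replicate 2. Olfml3 (chr3:103738002-103738251, minus strand) had its lowest ratio there, and Hpgd (chr8:56294302-56294551, plus strand) kept nearly the same ratio. Capitals mark matches, on either strand, to GAGGAA (the core of the site of PU.1, the lineage factor of macrophages), CAGACA (SMAD, the effectors of TGF-beta), TGCTGA (the core of the site of MAF factors), TGACTCA (AP-1) and TATAAA (the TATA box). No match overlapped another.
Sparc: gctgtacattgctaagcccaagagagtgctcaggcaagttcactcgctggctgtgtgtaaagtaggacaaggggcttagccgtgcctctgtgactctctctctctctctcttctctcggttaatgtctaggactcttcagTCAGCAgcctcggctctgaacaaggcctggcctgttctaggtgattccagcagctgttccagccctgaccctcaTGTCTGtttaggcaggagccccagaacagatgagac
Crybb1: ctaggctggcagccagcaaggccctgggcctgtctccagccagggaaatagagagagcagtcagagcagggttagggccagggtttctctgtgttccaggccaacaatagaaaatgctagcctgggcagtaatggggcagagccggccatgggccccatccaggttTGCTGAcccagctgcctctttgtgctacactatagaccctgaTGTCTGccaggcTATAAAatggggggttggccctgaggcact
Olfml3: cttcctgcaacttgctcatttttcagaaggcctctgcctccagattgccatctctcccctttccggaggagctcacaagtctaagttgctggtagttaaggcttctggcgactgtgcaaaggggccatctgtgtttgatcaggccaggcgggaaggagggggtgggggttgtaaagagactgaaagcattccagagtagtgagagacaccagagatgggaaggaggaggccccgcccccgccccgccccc
Hpgd: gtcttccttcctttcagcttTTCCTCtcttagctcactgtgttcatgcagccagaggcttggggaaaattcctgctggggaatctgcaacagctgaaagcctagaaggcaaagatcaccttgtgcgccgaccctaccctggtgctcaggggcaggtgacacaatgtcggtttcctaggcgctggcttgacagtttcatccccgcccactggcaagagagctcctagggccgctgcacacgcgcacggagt
The Sparc window held 1 MAF match and 1 SMAD match. The Crybb1 window held 1 MAF match, 1 SMAD match and, 30 bases before the start, 1 TATA box. The Hpgd window held 1 PU.1 match, 230 bases before the start, and the Olfml3 window held no match to these letters. Over the 6 promoters, GAGGAA occurred in 1, CAGACA in 3, TGCTGA in 2, TGACTCA in 0 and TATAAA in 2. In 32851 RefSeq promoters of the same length, the shares with a match were 23.3%, 17.1%, 16.1%, 4.46% and 12.4% in that order. In the 19008 promoters of tested genes among them, the shares were 23.3%, 15.1%, 14.3%, 3.55% and 7.84%. With 6 promoters, these counts describe the windows and are not tested.

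The first comparison asked whether these genes differ between AD/KO and AD. Under the quasi-likelihood test of edgeR, adjusted by Benjamini-Hochberg over all genes, 0 of the 9 passed the threshold of 0.05, as did 0% of the 21439 genes tested. At an unadjusted p under 0.05 there were 0 of the 9, against 1072 genes (5% of all tested), and with DESeq2 0 of the 9 and 86 of all genes passed. The 9 log2 fold changes ran from −0.81 (Gpr34) to 0.30 (Sparc), with a median of −0.20 against −0.048 over all genes tested. They were below 0 in 6 of the 9 genes, where 52.8% of all genes tested were. Their standard errors, from 0.55 to 0.82, were as large as these differences or larger in all of the genes but Gpr34.

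What set the levels apart was the library within each group. AD/KO replicate 2 was the lowest of the 4 libraries in 8 of the 9 genes (all but Sparc), against 42.4% of all genes tested. AD/KO replicate 1 was the highest in 7 of the 9 (all but Golm1 and Gpr34), against 10.9% of all genes tested. The AD libraries therefore lay between the AD/KO libraries for most of these genes. The groups did not overlap in 1 gene, Gpr34, where 42% of all genes tested showed no overlap.

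**Figure D1:**
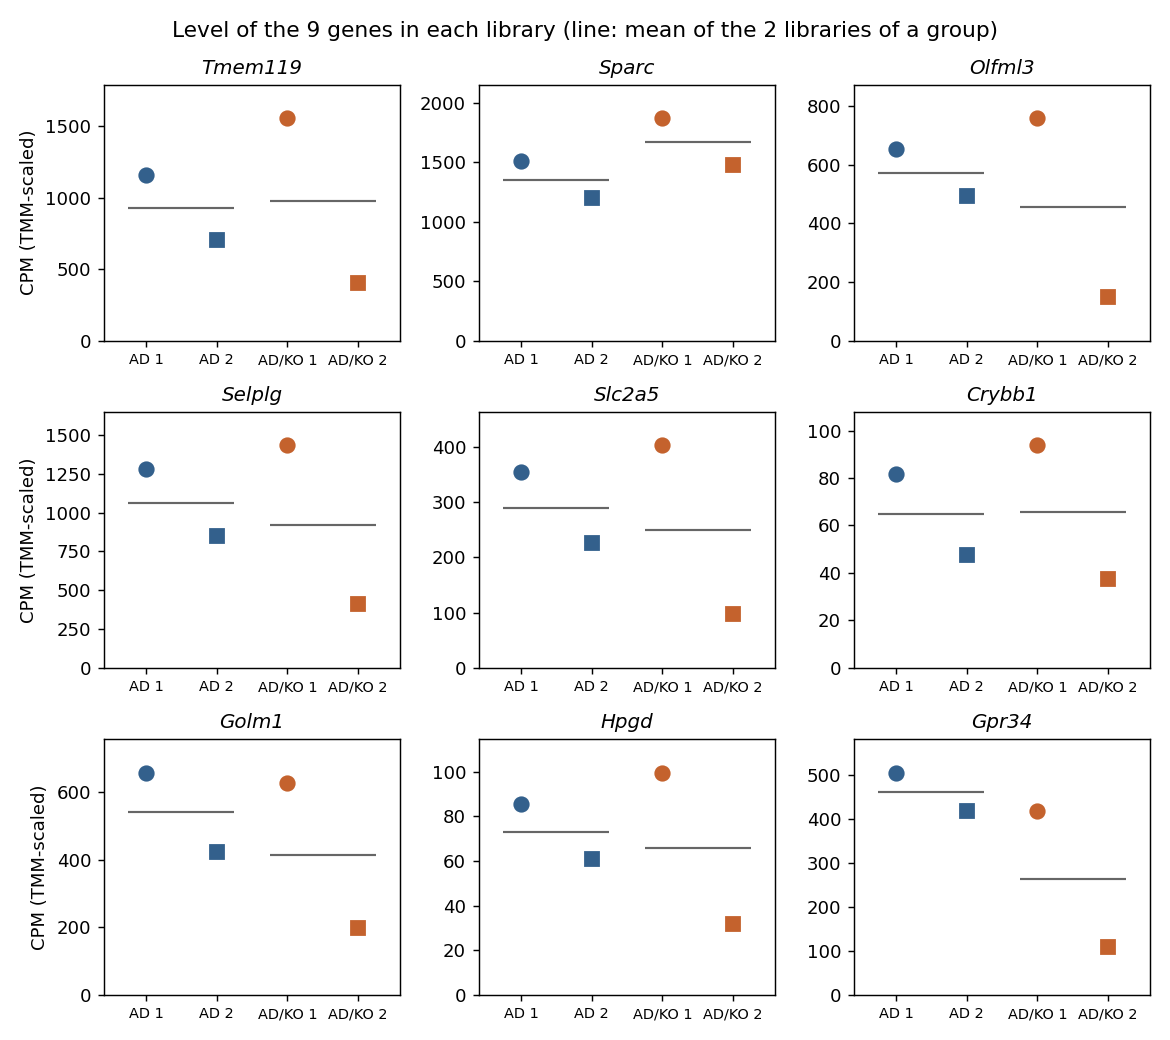
Level of each of the 9 genes in each library, in CPM after scaling, on axes that start at 0. Points are libraries (AD in blue, AD/KO in orange), and the line is the mean of the 2 libraries of a group. AD/KO replicate 2 is the lowest point in 8 panels, and in the Sparc panel it stands at 1475 CPM, above AD replicate 2.

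Among the surface proteins, Tmem119 (gene ID 231633, chromosome 5, 113793729 to 113800516, minus strand, GRCm38) encodes a single-pass membrane protein. Its level was 1156 and 702 CPM in AD and 1554 and 404 CPM in AD/KO. The AD mean was 929 ± 321 CPM (SD, n = 2), against 979 ± 813 CPM (SD, n = 2) for AD/KO. The log2 fold change was 0.08 (SE 0.79; adjusted p of 0.972, edgeR quasi-likelihood). AD/KO replicate 1 was 3.85-fold higher than AD/KO replicate 2, a gap wider than that between the group means.

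Selplg (gene ID 20345, chromosome 5, 113818536 to 113832644, minus strand) encodes PSGL-1, a ligand of selectins that blood leukocytes also carry. It was at 1278 and 848 CPM in AD and at 1433 and 413 CPM in AD/KO, for a log2 fold change of −0.20 (SE 0.75). The part of neutrophils, whose markers were highest in AD replicate 2, in the Selplg values was not tested. Short stretches of its transcript match Gtpbp4 (122 bases at 95.9% identity) and Gm37750 (116 bases at 96.6%).

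Gpr34 (gene ID 23890, chromosome X, 13632089 to 13640858, plus strand) encodes a G protein-coupled receptor for lysophosphatidylserine and lies within Cask, on the other strand, with no shared exon bases. It was at 506 and 418 CPM in AD and at 418 and 109 CPM in AD/KO. The groups did not overlap, but AD/KO replicate 1 (417.6 CPM) was almost level with AD replicate 2 (418.2 CPM). The log2 fold change was −0.81 (SE 0.70; adjusted p of 0.704, edgeR quasi-likelihood), the largest in size of the 9, and it was −0.13 without AD/KO replicate 2.

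Slc2a5 (gene ID 56485, chromosome 4, 150119283 to 150144169, plus strand) encodes the fructose transporter GLUT5. Its level was 354 and 226 CPM in AD and 403 and 97.7 CPM in AD/KO, for a log2 fold change of −0.21 (SE 0.74). The AD/KO libraries again lay on both sides of AD.

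Golm1 (gene ID 105348, chromosome 13, 59634626 to 59675811, minus strand) encodes a Golgi membrane protein whose outer part can be released from the cell. It was at 659 and 422 CPM in AD and at 629 and 199 CPM in AD/KO, for a log2 fold change of −0.39 (SE 0.67). Of its exon bases, 29.3% overlap Naa35 on the other strand, and the strand setting of the counting is not stated, so that its counts are uncertain. The level of Naa35 was 67.7, 55.4, 59.8 and 34.1 CPM in AD replicates 1 and 2 and AD/KO replicates 1 and 2.

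Of the genes for secreted proteins, Sparc (gene ID 20692, chromosome 11, 55394500 to 55423183, minus strand) encodes a matricellular glycoprotein that binds calcium and collagen, and astrocytes and vascular cells are known to express it as well. It was at 1512 and 1195 CPM in AD and at 1869 and 1475 CPM in AD/KO. The AD mean was 1354 ± 224 CPM (SD, n = 2), against 1672 ± 279 CPM (SD, n = 2) for AD/KO, which gave a log2 fold change of 0.30 (SE 0.56; adjusted p of 0.835, edgeR quasi-likelihood). The libraries of the groups overlapped. AD/KO replicate 2 held 109% of the AD mean of Sparc, where it held 23.6% to 57.8% of the AD mean of the other 8 genes.

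Olfml3 (gene ID 99543, chromosome 3, 103722222 to 103738001, minus strand) encodes a secreted olfactomedin-domain glycoprotein. It was at 655 and 492 CPM in AD and at 759 and 149.8 CPM in AD/KO, for a log2 fold change of −0.34 (SE 0.82). The gap between the AD/KO libraries was 5.06-fold, the widest of the 9 genes.

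Of the cytosolic proteins, Crybb1 (gene ID 12960, chromosome 5, 112255815 to 112269585, plus strand) encodes a beta-crystallin, best known as a structural protein of the lens. It was at 81.7 and 47.7 CPM in AD and at 93.7 and 37.4 CPM in AD/KO, for a log2 fold change of 0.02 (SE 0.55). Its AD/KO libraries were 2.51-fold apart, less than those of the other genes but Sparc (1.27-fold). Hpgd (gene ID 15446, chromosome 8, 56294585 to 56321043, plus strand) encodes the dehydrogenase that inactivates prostaglandins. It was at 85.4 and 60.7 CPM in AD and at 99.6 and 31.9 CPM in AD/KO, for a log2 fold change of −0.15 (SE 0.59). The smallest count behind any of these values was 587 reads (Hpgd in AD/KO replicate 2), which gives a counting error of 4.13%, so that counting error is small beside the gaps between libraries.

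Levels were compared between genes per kilobase of exon. On this scale (CPM per kilobase of the union of exons, mean of the 4 libraries) Tmem119 stood at 412 and Sparc at 399. Selplg followed at 233, Gpr34 at 174, Golm1 at 108, Olfml3 at 83.4, Slc2a5 at 79.4, Crybb1 at 66.1 and Hpgd at 41.2. Of the 8 steps between neighbours in this order, 4 held in all 4 libraries (Sparc over Selplg, Gpr34 over Golm1, Golm1 over Olfml3 and Crybb1 over Hpgd). Tmem119 was above Sparc in 2 of the 4 libraries, AD replicate 1 and AD/KO replicate 1, and below it in the other two. With the length of the longest transcript, Sparc (658) and Selplg (429) stood above Tmem119 (425). The place of Olfml3 also rests on its gene model, since its RefSeq gene spans 2608 bases against 6161 exon bases in GENCODE M21.

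The second comparison set the genes against one another within each library, where library size and scaling cancel. For each of the 36 pairs, the ratio of the CPM values was taken in the 4 libraries. Leaving out Sparc, the highest ratio of a pair was 1.16-fold to 3.01-fold its lowest, with a median of 1.57-fold over 28 pairs. The 8 pairs with Sparc moved by 2.13-fold to 4.74-fold, with a median of 3.13-fold. The steadiest pair was Selplg and Hpgd, whose ratio was 14.97 and 13.98 in AD and 14.39 and 12.97 in AD/KO, while each of these genes differed more than 3-fold between the AD/KO libraries. Selplg against Golm1 moved by 1.17-fold and Selplg against Slc2a5 by 1.19-fold. Tmem119 against Selplg, its neighbour on chromosome 5, was 0.904 and 0.827 in AD and 1.09 and 0.977 in AD/KO.

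**Figure D2:**
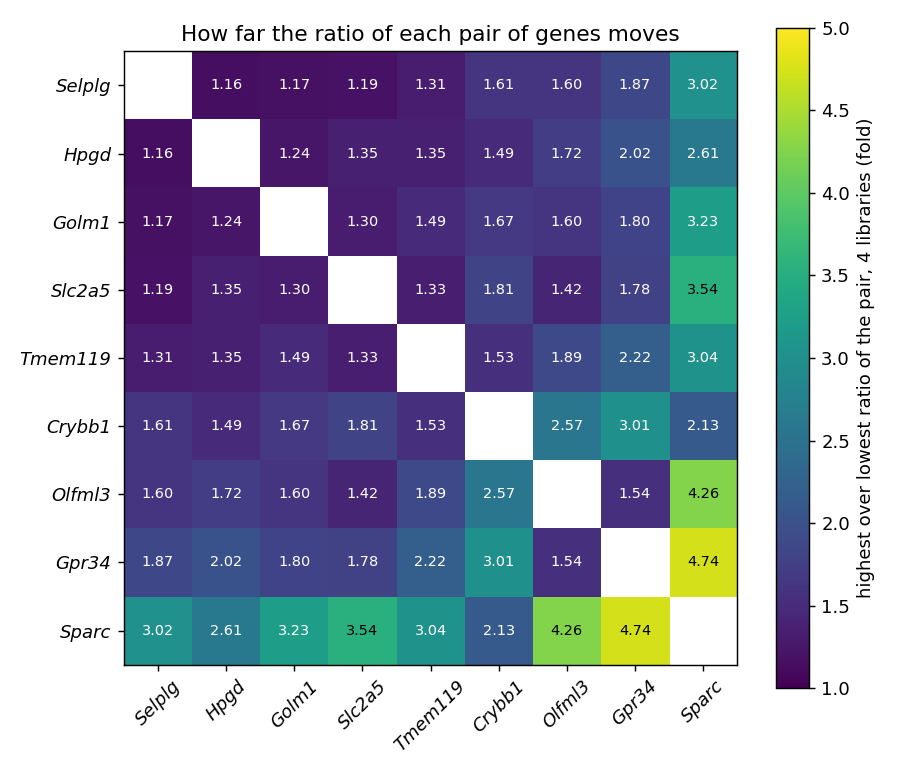
For each pair of the 9 genes, the highest of its 4 library ratios divided by the lowest (fold, colour and printed value). The row and column of Sparc hold 2.13-fold or more throughout, while Selplg, Hpgd, Golm1 and Slc2a5 stay within 1.35-fold of one another.

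Each gene was next set against the geometric mean of the other 8. The log2 ratio of Sparc was 1.88 and 2.11 in AD and 2.06 and 3.55 in AD/KO, the last value being that of replicate 2. Sparc was thus close to AD in 1 AD/KO library and far above in the other. The same library had the highest summed level of astrocyte, oligodendrocyte precursor (494 CPM, against 98.6 to 246 CPM), mural (81.6 CPM, against 22.8 to 44.3 CPM) and fibroblast markers (64.8 CPM, against 13.4 to 26.4 CPM). In each of these lists all markers were detected in every library but Lum, a fibroblast marker. Endothelial markers summed to 69.5 CPM there, against 46.5 to 57.9 CPM in the other libraries. Of the markers tested, AD/KO replicate 2 was highest in 8 of 8 astrocyte, 5 of 6 oligodendrocyte precursor and 5 of 6 mural markers. It was also highest in 3 of 4 fibroblast and 6 of 8 endothelial markers. The exceptions were Vcan, Acta2, Dcn, Pecam1 and Kdr, and Pecam1 (9.12 CPM) and Kdr (6.73 CPM) were lowest in this library. The part of these cells in the Sparc value was not tested.

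Gpr34 and Golm1 had ratios that were lower in both AD/KO libraries, while Tmem119, Crybb1 and Hpgd had ratios that were higher in both. For Tmem119, AD replicate 1 and AD/KO replicate 2 both rounded to 1.45. No share over all genes was computed for this ratio. Golm1 was at 0.53 and 0.42 in AD and at 0.29 and 0.30 in AD/KO, a difference of −0.19 between the group means. Against the pan-microglia genes the Golm1 difference was 0.03, and the groups overlapped. In the ratio to the other genes, the difference was larger for Gpr34. Its log2 ratio to the other genes was 0.11 and 0.41 in AD and −0.38 and −0.68 in AD/KO, a difference of −0.78 between the group means. The gap between the groups, from 0.11 to −0.38, was wider than the gap within either group. Against Tmem119 alone, Tmem119 was 2.29 and 1.68 times Gpr34 in AD, and 3.72 and 3.71 times Gpr34 in AD/KO. Of 21181 genes tested with a read in every library, 13.8% had a ratio to Tmem119 that was lower in both AD/KO libraries, so that this pattern was not rare. All 7 pairs of Gpr34 with a gene other than Sparc, and its pair with Sparc, had ratios that did not overlap between the groups. The pairs of Gpr34 share its values and are not independent. There was also no overlap in 10 of the 21 pairs with neither Sparc nor Gpr34, and in 20 of all 36 pairs. No share over pairs of other genes was computed, so that these counts only describe the 36 pairs. Gpr34 is X-linked, and its ratio was highest in AD replicate 2, the library with 1391 Xist reads. The part of sex in this ratio was not tested.

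Of the other genes, Crybb1 had log2 ratios of −2.85 and −3.11 in AD and −2.80 and −2.41 in AD/KO. Olfml3 was at 0.53, 0.67 and 0.59 in both AD libraries and AD/KO replicate 1, and at −0.16 in AD/KO replicate 2. Tmem119 was at 1.45 and 1.25 in AD and at 1.76 and 1.45 in AD/KO. Hpgd moved least, by 0.11 over the 4 libraries, and Selplg by 0.14, where their log2 CPM values spanned 1.64 and 1.79. With 2 libraries against 2, the exact permutation test of a ratio cannot give a two-sided p below 0.333, so none of the 9 ratios could pass. The Benjamini-Hochberg adjusted values over the 9 tests ran from 0.6 to 1.

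**Figure D3:**
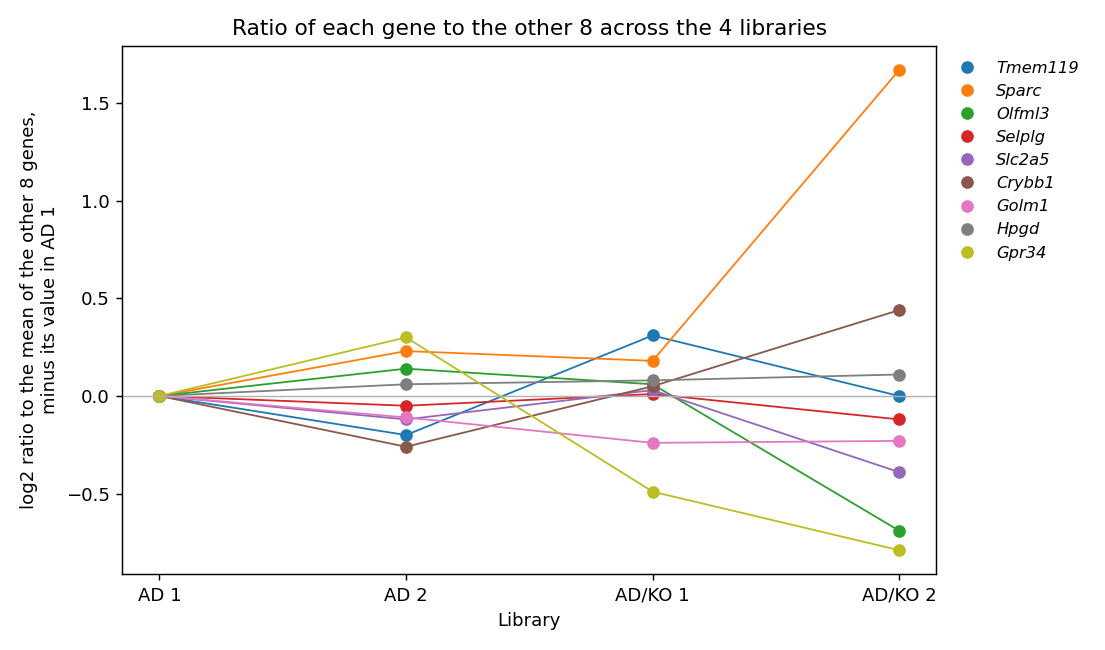
Log2 ratio of each gene to the geometric mean of the other 8, less its value in AD replicate 1, in each library. Lines only trace a gene, since libraries have no order. Sparc stands at 1.67 in AD/KO replicate 2 (3.55 less the 1.88 of AD replicate 1), and Gpr34 lies below its AD values in both AD/KO libraries.

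The 9 genes were also set against 12 pan-microglia genes (such as Csf1r, C1qa and Ctss). The mean log2 ratio of AD/KO less AD was 0.42 for Tmem119, 0.91 for Sparc, 0.53 for Crybb1, 0.25 for Hpgd, 0.17 for Selplg, 0.09 for Slc2a5, 0.03 for Golm1, −0.15 for Olfml3 and −0.50 for Gpr34. For Gpr34 the values were −0.33 and −0.12 in AD and −0.58 and −0.88 in AD/KO. For Tmem119 they were 0.86 and 0.63 in AD and 1.32 and 1.01 in AD/KO. The groups did not overlap in 6 of the 9 genes, higher in AD/KO for Tmem119, Sparc, Crybb1, Hpgd and Selplg and lower for Gpr34, against 16.9% of 21181 genes tested on the same ratio. That share is over genes of all cell types, and none was computed for other microglial genes. In each of the 6 the exact two-sided permutation test gave a p of 0.333, the smallest possible with 2 libraries against 2. When the edgeR fit was scaled to these 12 genes, the median over all tested genes moved from −0.05 to 0.72 on the log2 scale. Relative to that median all of the genes but Sparc lay below, Sparc being at 1.05, and 0 of the 9 passed the threshold. On this scaling the log2 fold changes of Selplg, Slc2a5, Golm1 and Hpgd changed sign, to values between 0.03 and 0.25.

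**Figure D4:**
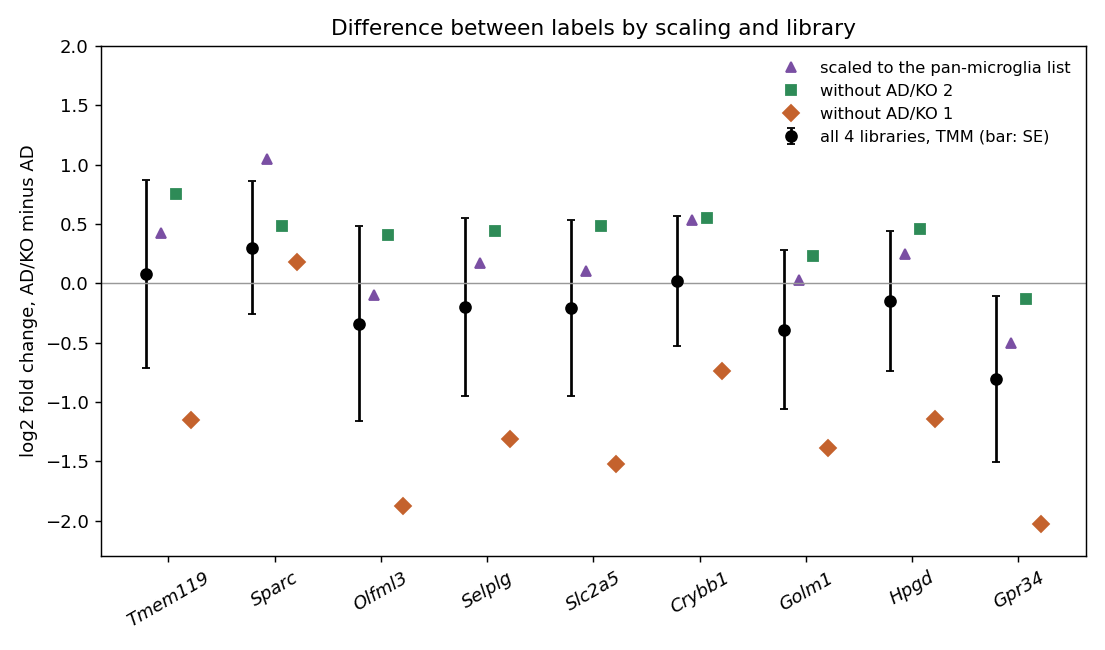
Log2 fold change of AD/KO against AD for each gene: all 4 libraries (black, bar for the standard error), scaling to the pan-microglia list (triangles), without AD/KO replicate 2 (squares) and without AD/KO replicate 1 (diamonds). Without AD/KO replicate 2 the values of all of the genes but Gpr34 lie above 0, and without AD/KO replicate 1 all but Sparc lie below it.

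A list of 30 other homeostatic microglia genes, such as the purine receptor P2ry12, the fractalkine receptor Cx3cr1 and the transcription factor Sall1, had a median log2 fold change of −0.48. In that list 30 of 30 values were below 0, against 52.8% of all genes tested, 0 passed the threshold, and 2 were lower in both AD/KO libraries, where 21.7% of all genes tested were. The 12 pan-microglia genes had a nearly equal median of −0.49, with 10 of 12 below 0, and after scaling to them the median of the 30 genes was −0.07. AD/KO replicate 2 was the lowest library in 30 of the 30, as in 8 of the 9 genes above. AD/KO replicate 1 was the highest in 7 of the 30, against 7 of the 9. The highest log2 fold changes of the list were those of Ltc4s (leukotriene C4 synthase, −0.0042, SE 0.66), Ecscr (−0.13, SE 0.73) and Bin1 (−0.15, SE 0.49). Its lowest were those of Upk1b (−2.26, SE 1.11), Fcrls (−1.34, SE 0.45) and Pros1 (protein S, −0.81, SE 0.59). Fcrls, an Fc receptor-like gene of microglia, was at 462 and 587 CPM in AD and at 259.5 and 155 CPM in AD/KO, without overlap. Upk1b was at 83.0 and 21.3 CPM in AD and at 19.0 and 2.66 CPM in AD/KO, and these groups did not overlap either.

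The summed level of the 9 genes was 6287 and 4411 CPM in AD and 7257 and 2916 CPM in AD/KO. The sum of 14 disease-associated microglia genes was 1008 and 1101 CPM in AD and 443 and 327.5 CPM in AD/KO. For the disease-associated genes both AD/KO libraries were below both AD libraries, whereas for the 9 genes the AD/KO libraries lay on both sides of AD. Monocyte markers summed to 85.4 and 459 CPM in AD and to 43.8 and 51.5 CPM in AD/KO. Most of the sum in AD replicate 2 came from Chil3 (293.7 CPM, against 10.6 CPM in AD replicate 1). By contrast, Ccr2 was at 39.77 and 39.95 CPM in AD and at 10.3 and 6.13 CPM in AD/KO. Border-associated macrophage markers summed to 133 and 100.2 CPM in AD and to 69.1 and 59.5 CPM in AD/KO. The part of these cells in the sum of the disease-associated genes was not tested.

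**Figure D5:**
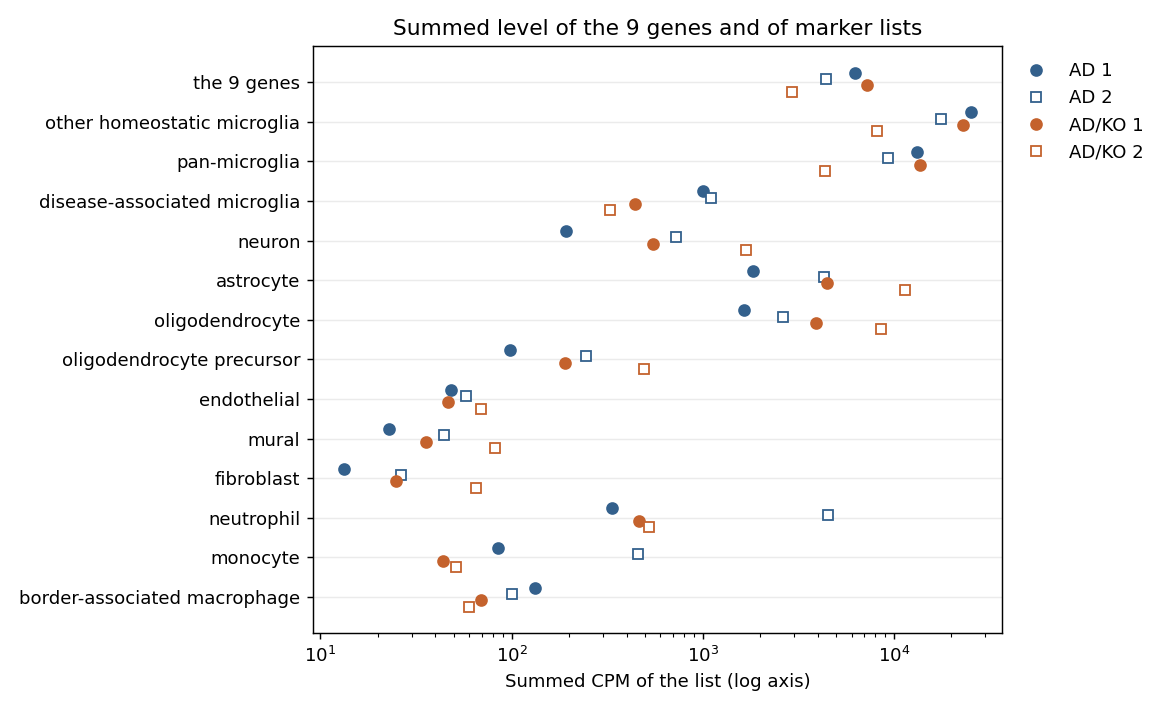
Summed CPM of the 9 genes, of the microglial lists and of marker lists of other cell types in each library, on a log axis (AD in blue, AD/KO in orange, replicate 1 filled, replicate 2 open). AD/KO replicate 2 has the lowest sum of the 9 genes, 2916 CPM, and the highest sums of neuron and astrocyte markers.

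The genes whose pattern was most like that of Tmem119 were ranked by the standard deviation, over the 4 libraries, of the log2 ratio of their CPM to that of Tmem119. The ranking covered 8517 genes with a mean of at least 20 CPM and a read in every library. The 5 nearest that were not among the 9 were Ltc4s (0.066), Inka1 (0.084), Fam110a (0.100), Clcf1 (0.148) and Ecscr (0.152), of which Ltc4s and Ecscr were in the list of other homeostatic genes. Ltc4s was at 87.0 and 50.5 CPM in AD and at 106.6 and 30.5 CPM in AD/KO. Of the 9 genes, Selplg ranked 8, Hpgd 17, Slc2a5 23, Golm1 81, Crybb1 87, Olfml3 396, Gpr34 1450 and Sparc 3052. With 4 libraries that differ in cell make-up, this ranking describes these libraries.

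Tmem119 and Selplg lie on chromosome 5 with starts 32128 bases apart, so their neighbours were examined. Among genes with a mean of at least 1 CPM and a start within 100 kb of either, Iscu was at 25.5 and 27.3 CPM in AD and at 39.8 and 27.0 CPM in AD/KO. Sart3 was at 55.1 and 60.2 CPM in AD and at 63.0 and 75.1 CPM in AD/KO, and Coro1c at 86.4 and 92.3 CPM in AD and at 79.7 and 71.9 CPM in AD/KO. Ficd ranged from 13.4 to 17.2 CPM. The highest library was 1.28-fold to 1.56-fold the lowest in these 4 genes, where it was 3.85-fold for Tmem119 and 3.47-fold for Selplg. The pseudogene Gm19931 was at 9.29 and 3.32 CPM in AD and at 6.62 and 2.66 CPM in AD/KO. Like Tmem119, Selplg and Coro1c it was lowest in AD/KO replicate 2, as were 42.4% of all genes tested. Its highest level was in AD replicate 1, where Tmem119 and Selplg were highest in AD/KO replicate 1.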

How the data were processed

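RNA of CD11b+ microglia was depleted of ribosomal RNA and made into stranded libraries, per the labels' protocols. For each library the authors deposited raw counts of reads by gene symbol, as whole numbers. Per the submitters' processing notes, HISAT2, SAMtools, featureCounts of Subread and DESeq2 1.30.0 were used with the build mm10, and the strand setting, the treatment of reads that match several places and the annotation are not given in the sources used here. Broken lines (11 per library) held no count, so that 4 genes (Bag6, Huwe1, Mycbp2 and Neb) were left out, and no column was unmapped (0). Depth ran from 13102622 to 19810076 counts. Reads carry no molecular identifiers, so that the counting error given covers counting only.

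All genes were fitted with edgeR 4.0.16 in R 4.3.3: filterByExpr (minimum count 10, minimum total 15), TMM scaling, and the quasi-likelihood test of AD/KO against AD on the 4 libraries without covariates, with Benjamini-Hochberg adjustment over all genes tested at 0.05. The standard error is the log2 fold change divided by the square root of F. CPM values are TMM-scaled. The procedure was tested on simulated data. Ratios of CPM were compared by an exact two-sided permutation test over libraries. Coordinates and exon lengths are from GENCODE M21 (GRCm38), counted from 1, gene IDs and promoters from RefSeq for GRCm38.p6. Near-identical transcripts were searched with BLAST at 95% identity over 100 bases.

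The 9 genes and all gene lists were chosen with earlier results of these data known. Beside the 9 genes and Ociad1, the genes named by rule were the 5 nearest to Tmem119 in pattern (mean of at least 20 CPM), the 3 highest and 3 lowest of the other homeostatic list, and neighbours of Tmem119 and Selplg within 100 kb. Naa35, Xist and the genes named as examples of a list were added after their values were seen. Alternatives were DESeq2 1.42.0, its size factors, other filters on low counts, a replicate block, scaling to the pan-microglia list, leaving out each library, and other gene lengths, of which the RefSeq length was added after the data were seen.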

Additional observations from a re-analysis of the deposited data

How the results depend on the processing

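None of the 9 genes passed the threshold under any alternative run. The count over all genes was 0 in the edgeR fit (1072 genes had an unadjusted p under 0.05), and was also 0 with DESeq2 size factors, without a low-count filter, with a minimum mean of 1 CPM and with scaling to the pan-microglia list. DESeq2 called 86 genes, and leaving out 1 library gave 0 to 524 (48 without AD replicate 1, 524 without AD replicate 2); the cause was not tested. With 1 library of a group left, that library is assumed to vary like the other group.

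The groups share the replicate numbers 1 and 2, which the labels do not tie to a litter, batch or day. The deviations of same-numbered libraries had a correlation of 0.68 over 21439 genes. With the replicate block 4333 genes were called, none of them among the 9, and the log2 fold changes of Tmem119 and Crybb1 reversed to −0.18 and −0.07. The median of the 9 genes was then −0.44 and that of the other homeostatic genes −0.68, and the median absolute ratio difference was 0.25 as without it.

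Scaling to the pan-microglia list reversed Selplg (0.17), Slc2a5 (0.10), Golm1 (0.03) and Hpgd (0.25). With each library left out in turn, log2 fold changes ran from −1.15 to 0.75 for Tmem119, −1.88 to 0.41 for Olfml3, −1.31 to 0.44 for Selplg, −1.52 to 0.48 for Slc2a5, −0.74 to 0.55 for Crybb1, −1.39 to 0.23 for Golm1, −1.14 to 0.46 for Hpgd, 0.18 to 0.48 for Sparc and −2.03 to −0.13 for Gpr34. The lowest value of each came without AD/KO replicate 1 and the highest without AD/KO replicate 2, which for Sparc was matched without AD replicate 1. So did the medians, from −1.31 to 0.46 for the 9 genes and −1.54 to 0.13 for the other homeostatic genes. The median absolute difference in the ratio to the other 8 genes, 0.25 on the log2 scale, ran from 0.09 without AD/KO replicate 2 to 0.35 without AD replicate 1.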
